A study of Mus musculus with 28 samples.

Results

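The 10 genes described here, Gfap, Aqp4, Aldh1l1, Slc1a2, Slc1a3, Gja1, Fgfr3, Sox9, Aldoc and S100b, are standard markers of astrocytes. They were chosen by name as known astrocyte genes, and all 10 were among the 48709 gene identifiers counted in each library and among the 17009 genes with enough counts to be tested. RNA was sequenced from the CA1 region of the mouse hippocampus, dissected under a microscope. Wildtype littermates given vehicle in the drinking water gave 10 libraries, CamkdeltaC transgenic mice given vehicle gave 9, and CamkdeltaC transgenic mice given Vorinostat in the drinking water gave 9. Dosing began at 2 months of age and lasted 4 weeks, and every library is labelled as coming from a mouse 3 months old. Both sexes were used, but no label gives the sex behind a library or ties each library to its own animal, and p-values here reflect the spread among libraries, which may be partly technical. CamkdeltaC mice are known as a heart failure model that carries the delta C splice form of calcium/calmodulin-dependent protein kinase II as a transgene in heart muscle, and Vorinostat is an inhibitor of histone deacetylases. A wildtype group on Vorinostat is not part of these comparisons, so an effect of the drug cannot be told apart from an effect that needs the transgene.

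Astrocytes are glial cells that take up glutamate and potassium released by neurons, pass metabolites and ions to one another through gap junctions, and wrap blood vessels with endfeet that are rich in water channels. In hippocampal CA1 their processes surround the synapses of pyramidal neurons. After injury or inflammation they can enter a reactive state, for which higher Gfap is the best known sign. The tissue is bulk RNA, in which fewer astrocytes and less RNA per astrocyte cannot be told apart. Not all of the 10 genes are transcribed in astrocytes alone: S100b is also transcribed in the oligodendrocyte lineage, for example, and Slc1a2 to a low level in pyramidal neurons.

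Libraries held 20230085 to 33191857 counts, and the 10 genes together took 0.588% to 0.807% of them. Wildtype vehicle libraries gave a share of 0.631% ± 0.0338 (SD, n = 10), transgenic vehicle libraries 0.650% ± 0.0231 (SD, n = 9) and Vorinostat libraries 0.656% ± 0.0610 (SD, n = 9). The CA1 markers Wfs1 and Mpped1 averaged 286 and 463 CPM (counts per 1000000 counts of a library, scaled by edgeR's TMM factors), against 26.5 for Prox1 of dentate granule cells and 3.70 for Foxj1 of ependymal cells. Camk2d, the mouse gene of the kinase whose form the transgene carries, averaged 78.3 ± 35.3, 63.4 ± 19.8 and 71.4 ± 22.9 CPM (SD) in the 3 groups in that order. Its smallest unadjusted p over the 3 comparisons was 0.193, and since the transgene is driven in heart muscle, brain RNA offers no test of the genotype labels. Xist, a transcript that is high in female cells, split the libraries. It held 664 to 1025 counts per 1000000, without TMM factors, in 14 libraries and 0.426 to 2.05 in the rest. The high libraries were 6 of 10 in wildtype vehicle, 3 of 9 in transgenic vehicle and 5 of 9 in Vorinostat, an uneven split. In 4 libraries, wildtype vehicle 2 and Vorinostat 6, 7 and 9, mitochondrially encoded genes took 6.39% to 7.48% of counts, against 2.84% to 4.11% in the other 24. Those 4 also held 75.9 to 135 hemoglobin counts per 1000000 counts of a library, here without TMM factors, against 16.9 to 52.1 in the others. None of the 4 is a transgenic vehicle library, so the fitted values of the 10 genes in Vorinostat against transgenic vehicle are given with and without them.

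None of the 10 astrocyte genes passed the threshold, an adjusted p under 0.05 in edgeR's quasi-likelihood test with Benjamini-Hochberg adjustment over all genes, in any of the 3 comparisons. The background share of all genes called was 0% in each comparison, with unadjusted p under 0.05 for 1.33% of genes in transgenic vehicle against wildtype vehicle, 14.4% in Vorinostat against transgenic vehicle and 12.6% in Vorinostat against wildtype vehicle. The 3 comparisons share libraries with one another, so their values are set side by side and are not independent. In transgenic vehicle against wildtype vehicle the fitted log2 fold changes of the 10 genes ran from -0.06 for S100b to 0.07 for Aqp4. Across that comparison their 95% confidence intervals lay between a fold of 0.840 and a fold of 1.20. In Vorinostat against transgenic vehicle they ran from -0.12 for Fgfr3 to 0.16 for S100b, with intervals between a fold of 0.809 and a fold of 1.27. In Vorinostat against wildtype vehicle they ran from -0.10 for Fgfr3 to 0.10 for Aqp4, with intervals between a fold of 0.830 and a fold of 1.23. For no gene and no comparison did all libraries of one group lie above all of the other, which also held for all 17009 genes (0% in each comparison).

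**Figure D1:**
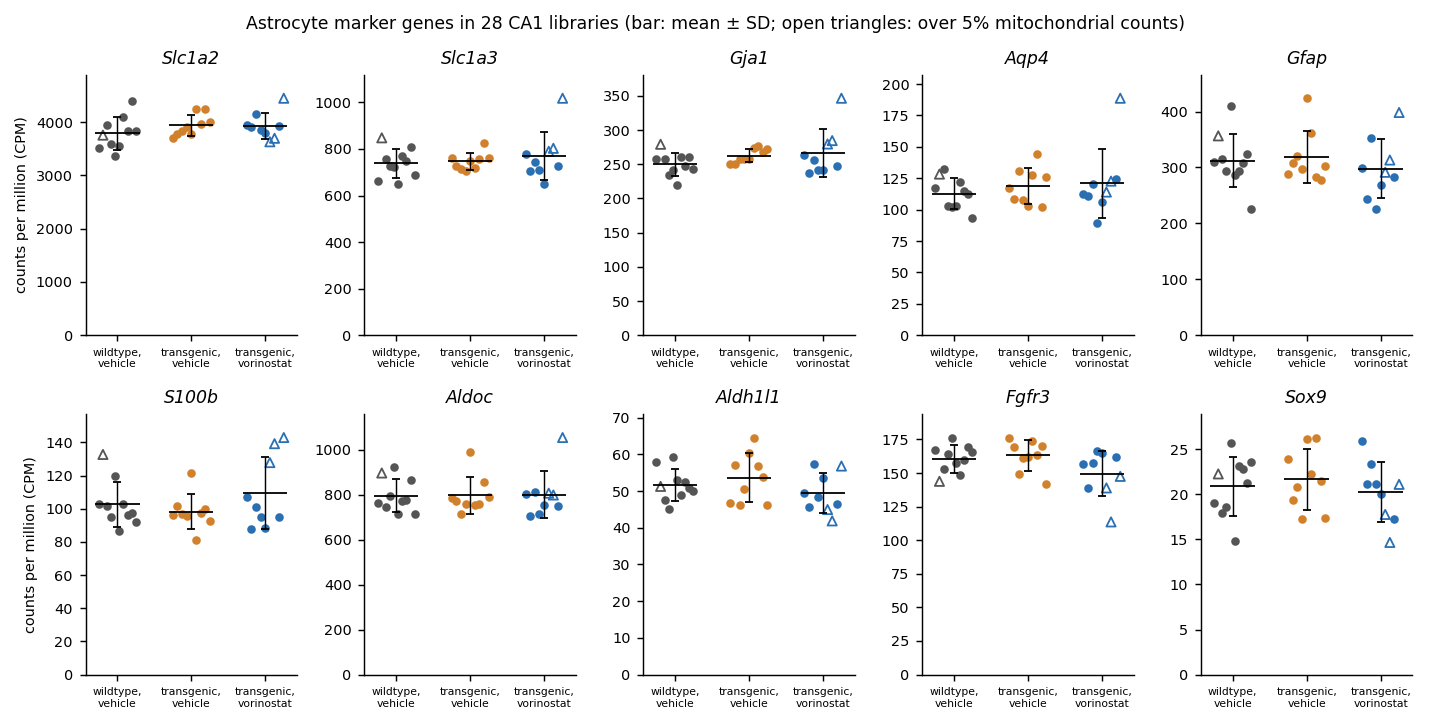
Each panel plots 1 gene: the vertical axis is CPM from 0, and each point is 1 of the 28 libraries, by group, with the group mean ± SD as a bar and the 4 libraries of high mitochondrial share as open triangles. The 3 groups overlap in every panel, and the open triangles are the highest libraries of their group for Slc1a3, Gja1 and S100b.

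The signs of the fitted changes are counted here only beside those of all genes. In transgenic vehicle against wildtype vehicle 9 of the 10 were positive (median 0.04), against 50.1% of all genes, and S100b was the one that was not. In Vorinostat against transgenic vehicle 5 of the 10 were positive (median -0.00055), against 50.9% of all genes. In Vorinostat against wildtype vehicle 6 of the 10 were positive (median 0.03), against 51.7% of all genes. Without the 4 libraries of high mitochondrial share, the first count was again 9 of 10, and the second was 0 of 10 (median -0.07), against 52.6% and 48.3% of the 17292 genes then tested. In Vorinostat against wildtype vehicle it was then 3 of 10, against 49.5%. The 10 genes share libraries and several of them vary together, so such counts are not 10 separate observations.

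**Figure D2:**
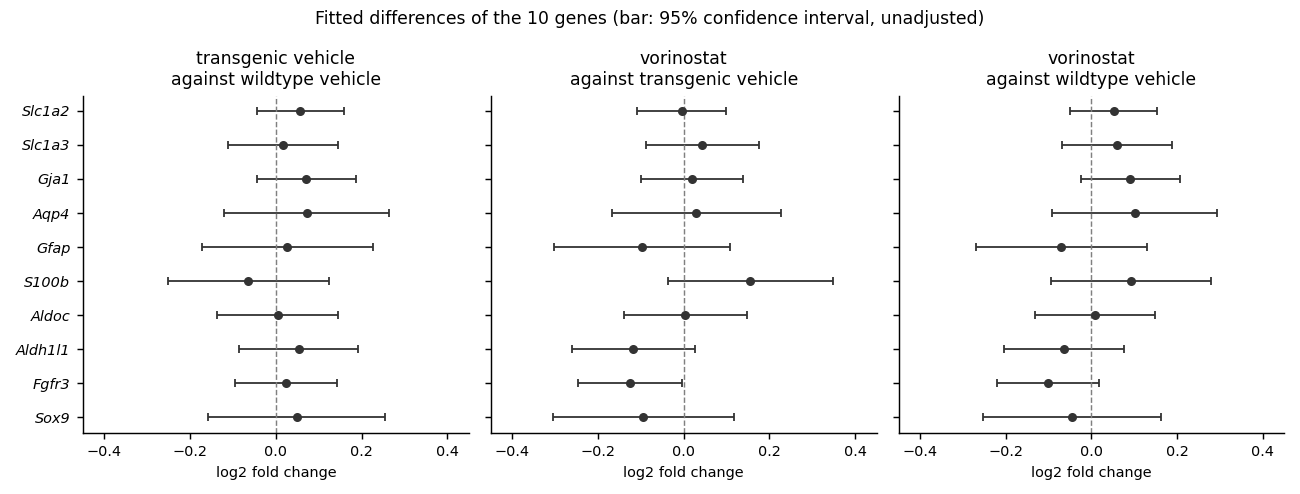
Points are fitted log2 fold changes of the 10 genes (rows) in the 3 comparisons (panels), and bars are 95% confidence intervals not adjusted for the number of genes. All intervals include 0 except that of Fgfr3 in Vorinostat against transgenic vehicle, whose upper end is -0.0030.

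Levels of different genes were compared as CPM per kilobase of exon, using all annotated exons of a gene. In wildtype vehicle libraries the glutamate transporter Slc1a2 stood highest at 288.7 ± 23.2 (SD, n = 10), followed by Aldoc at 243.8 ± 22.7. Their ranges overlapped, although Slc1a2 was the higher of the pair in 26 of all 28 libraries. Slc1a3 (86.5 ± 7.33), Gfap (74.1 ± 11.3) and S100b (69.1 ± 9.27) came next, and their neighbouring ranges overlapped. By this measure a lower tier held Gja1 (24.4 ± 1.62), Fgfr3 (22.4 ± 1.41) and Aqp4 (18.1 ± 1.98), again with overlapping neighbours. Aldh1l1 (11.4 ± 0.968) lay below every library of Aqp4, and the transcription factor gene Sox9 was lowest at 5.06 ± 0.791. Dividing by the longest annotated transcript in place of all exons gave the same order of the 10 genes, but not the same spacing. Gja1 then averaged 64.3 in wildtype vehicle, near S100b at 69.1, so the lower tier depends on the length used. Slc1a3 and Gfap averaged 166 and 118 by that length.

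**Figure D3:**
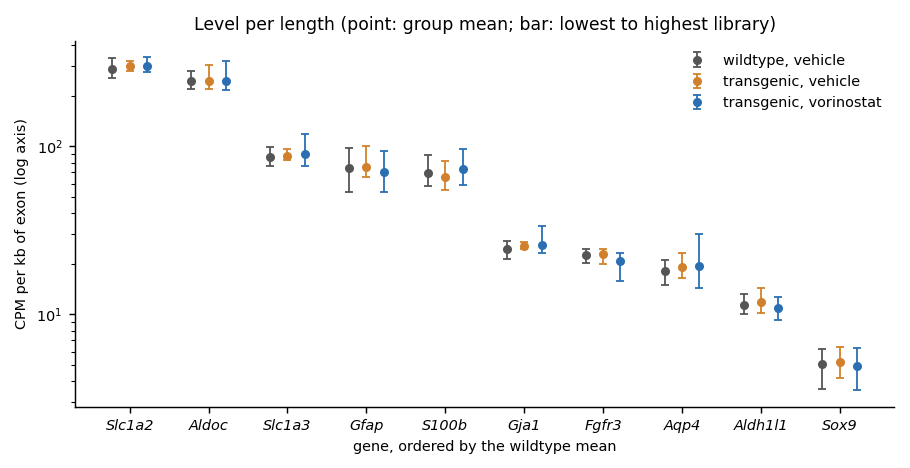
The vertical log axis is CPM per kilobase of exon, points are group means and bars run from the lowest to the highest library of each of the 3 groups. The order of the genes is nearly the same in each group, from Slc1a2 and Aldoc at the top to Sox9 at the bottom.

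Promoters are shown for the genes that held a match to the motif of STAT factors or to AP-1, and windows with only the arm of the NFI motif are not shown. Of these genes, Gfap varied together with Aldoc between libraries, and Slc1a3 with Gja1, as described with the correlations, whereas Gfap and Slc1a3 had r = 0.17. Any relation of promoter letters to such covariation was not tested. RefSeq entries on build GRCm38.p6 were matched for 8 of the 10 genes, as 10 windows of 250 bases before to 50 bases after a transcript start. The motif of STAT factors, TTCNNNGAA, was searched on both strands and was found in 3 of these 10 windows, against 8.30% of all 32851 promoter windows of the same length. The AP-1 motif TGANTCA was found in the window of Gja1 and in 7.81% of all windows, and the TATA box letters TATAAA in that of Slc1a3 and in 13.6% of all. The SOX motif AACAAT (10.7% of all windows) and the full palindrome of NFI factors (0.0365%), which is TTGGC and its reverse complement 5 bases apart, were found in none of the 10, while its arm TTGGC, held by 46.7% of all windows, was in those of Aldoc, S100b and Slc1a2. Each sequence below runs 5′ to 3′ on the gene's strand from 250 bases before the start to 10 bases after it. Matches to STAT, AP-1 and TATA letters on either strand are in capitals. The windows are chr11:102897191-102897450 on the minus strand for Gfap, chr15:8710798-8711057 on the minus strand for Slc1a3, chr11:78323948-78324207 on the plus strand for the second Aldoc start and chr10:56377050-56377309 on the plus strand for Gja1.
Gfap: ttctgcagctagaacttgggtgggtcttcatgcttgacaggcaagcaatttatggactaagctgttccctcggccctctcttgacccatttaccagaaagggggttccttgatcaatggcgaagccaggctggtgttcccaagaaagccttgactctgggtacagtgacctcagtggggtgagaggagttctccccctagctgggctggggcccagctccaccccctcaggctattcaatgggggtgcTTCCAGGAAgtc
Slc1a3: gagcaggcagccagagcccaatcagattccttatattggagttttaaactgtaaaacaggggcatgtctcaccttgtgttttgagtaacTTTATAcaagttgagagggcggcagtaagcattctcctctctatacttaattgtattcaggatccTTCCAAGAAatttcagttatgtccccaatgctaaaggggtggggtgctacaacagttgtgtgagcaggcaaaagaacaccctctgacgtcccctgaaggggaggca
Aldoc: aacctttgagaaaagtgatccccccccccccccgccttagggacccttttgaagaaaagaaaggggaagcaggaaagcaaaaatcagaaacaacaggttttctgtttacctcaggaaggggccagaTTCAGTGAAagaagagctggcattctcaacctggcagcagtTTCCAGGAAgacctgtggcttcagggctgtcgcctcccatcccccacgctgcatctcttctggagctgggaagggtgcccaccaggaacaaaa
Gja1: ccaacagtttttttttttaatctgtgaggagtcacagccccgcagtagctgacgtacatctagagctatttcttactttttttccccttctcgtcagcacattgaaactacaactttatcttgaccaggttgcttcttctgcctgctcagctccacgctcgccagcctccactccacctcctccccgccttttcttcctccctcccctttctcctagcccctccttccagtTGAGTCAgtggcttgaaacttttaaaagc
Gfap, Slc1a3 and Aldoc hold STAT letters, and in Gfap they span the RefSeq start used here, which lies inside the annotated gene and is not its most upstream start. The same holds for the second Aldoc start. A match is a stretch of letters and no binding was measured.

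The glutamate transporters come first among the roles. Slc1a2 (chr2:102658659-102790784, plus strand, GRCm38), which encodes GLT-1, the transporter that carries most glutamate uptake in the forebrain, is the most abundant of the 10. Its lowest, median and highest libraries were at 3369, 3795 and 4390 CPM in wildtype vehicle, 3710, 3920 and 4246 in transgenic vehicle, and 3633, 3903 and 4451 in Vorinostat. The 3 ranges overlap almost throughout, with the highest library, Vorinostat 9, only slightly above the highest wildtype library. The log2 fold change was 0.06 (SE 0.0496) in transgenic vehicle against wildtype vehicle and -0.0051 (SE 0.0509) in Vorinostat against transgenic vehicle, with adjusted p of 0.9998 and 0.967 by edgeR, and the latter was -0.0078 without the 4 libraries of high mitochondrial share. An antisense gene, Gm13872, overlaps 189 bases of its exons but held 83 counts over all libraries.

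Slc1a3 (chr15:8634124-8710764, minus strand) encodes GLAST, the transporter that is also found in radial glia. It ranged over 650 to 848 CPM in wildtype vehicle (median 737), 706 to 825 in transgenic vehicle (median 750) and 651 to 1018 in Vorinostat (median 745). The 3 medians lie close together, and the width of the Vorinostat range comes from library 9, the only one of the 28 above the wildtype maximum. The log2 fold change was 0.02 (SE 0.0627) in transgenic vehicle against wildtype vehicle and 0.04 (SE 0.0643) in Vorinostat against transgenic vehicle, with edgeR adjusted p of 0.9998 and 0.727. The second value was -0.06 without the 4 libraries of high mitochondrial share. Per kilobase of all annotated exons, Slc1a2 stood above Slc1a3 by a ratio of 3.35 ± 0.239, 3.44 ± 0.195 and 3.35 ± 0.336 (SD) in the 3 groups. That ratio was 2.84 to 2.995 in the 4 libraries of high mitochondrial share and 3.03 to 3.84 in the other 24, so these sets did not overlap. How many ratios of other genes set these libraries apart was not counted, so this is not shown to be particular to the transporters. The size of the ratio depends on the length used: by the longest annotated transcript the wildtype vehicle means were 327 for Slc1a2 and 166 for Slc1a3.

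Gap junctions and water transport are represented by Gja1 and Aqp4. Gja1 (chr10:56377330-56402513, plus strand) encodes connexin 43, the main gap junction protein between astrocytes. Its lowest, median and highest libraries were at 220 (wildtype vehicle 6), 252 and 279 CPM in wildtype vehicle, 250.7, 258 and 276 in transgenic vehicle, and 237, 257 and 347 in Vorinostat. The transgenic vehicle libraries form a narrow band inside the range of the other 2 groups. The log2 fold changes were 0.07 (SE 0.0568, unadjusted p = 0.223) in transgenic vehicle against wildtype vehicle and 0.02 (SE 0.0583) in Vorinostat against transgenic vehicle, with edgeR adjusted p of 0.9998 and 0.870. These became, in the 24 libraries of lower mitochondrial share, 0.09 (unadjusted p = 0.0132) and -0.09 (unadjusted p = 0.0321), and the edgeR adjusted p were 0.9995 and 0.966. At an unadjusted p under 0.05, 2.38% and 3.84% of all genes stood beside it in that smaller set of libraries.

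Aqp4 (chr18:15389496-15410982, minus strand) encodes the water channel of the perivascular endfeet. It ranged over 93.7 to 132 CPM in wildtype vehicle (median 114), 103 to 144 in transgenic vehicle (median 118) and 89.3 to 188.7 in Vorinostat (median 114). Vorinostat 9 stood apart at 188.7 CPM, while the next Vorinostat library was at 124.5. The log2 fold change in Vorinostat against transgenic vehicle was 0.03 (SE 0.0967, edgeR adjusted p = 0.891), and it was -0.08 without Vorinostat 9 and -0.10 without the 4 libraries. In transgenic vehicle against wildtype vehicle it was 0.07 (SE 0.0942, edgeR adjusted p = 0.9998).

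Gfap and S100b are the cytoskeletal and calcium-binding markers. Gfap (chr11:102887336-102900912, minus strand) encodes the glial fibrillary acidic protein, the intermediate filament that accumulates in reactive astrocytes. Its lowest, median and highest libraries were at 226, 308 and 409.8 CPM in wildtype vehicle, 277, 303 and 424 in transgenic vehicle, and 227, 291 and 398 in Vorinostat. One library in each vehicle group, number 5 in both, was well above its neighbours, and the lowest libraries of the wildtype and Vorinostat groups were nearly equal. The log2 fold change was 0.03 (95% interval -0.17 to 0.23) in transgenic vehicle against wildtype vehicle, with an edgeR adjusted p of 0.9998. It was -0.10 (95% interval -0.30 to 0.11) in Vorinostat against transgenic vehicle, with an edgeR adjusted p of 0.598. The latter was -0.19 without the 4 libraries of high mitochondrial share (unadjusted p = 0.0897, edgeR adjusted p = 0.966).

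S100b (chr10:76253853-76261159, plus strand) encodes a small calcium-binding protein that astrocytes also secrete. It ranged over 86.3 to 133 CPM in wildtype vehicle (median 99.4), 81.1 to 122 in transgenic vehicle (median 96.7) and 87.6 to 143 in Vorinostat (median 101). The highest wildtype library was number 2 and the 3 highest Vorinostat libraries were numbers 6, 7 and 9, which are the 4 libraries of high mitochondrial share. S100b had the largest fitted difference of the 10 in Vorinostat against transgenic vehicle, a log2 fold change of 0.16 (SE 0.0940, unadjusted p = 0.108, edgeR adjusted p = 0.389). Without the 4 libraries it was -0.04 (unadjusted p = 0.568). In transgenic vehicle against wildtype vehicle the log2 fold change was -0.06 (SE 0.0917, edgeR adjusted p = 0.9998).

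Aldoc and Aldh1l1 encode metabolic enzymes. Aldoc (chr11:78322968-78327781, plus strand), the brain form of the glycolytic enzyme aldolase, ranged over 713 to 923 CPM in wildtype vehicle (median 774), 712 to 989.8 in transgenic vehicle (median 770.3) and 706 to 1054 in Vorinostat (median 799). The 3 lowest libraries of the groups were almost equal, and the highest was Vorinostat 9. Its log2 fold changes were 0.0040 (SE 0.0688) in transgenic vehicle against wildtype vehicle and 0.0040 (SE 0.0706) in Vorinostat against transgenic vehicle, with edgeR adjusted p of 0.9998 and 0.983, and the latter was -0.08 without the 4 libraries of high mitochondrial share. Aldh1l1 (chr6:90486427-90600203, plus strand) encodes a folate enzyme and is widely used to label astrocytes in mice. Its lowest, median and highest libraries were at 45.1, 51.1 and 59.4 CPM in wildtype vehicle, 46.2, 53.9 and 64.6 in transgenic vehicle, and 41.9, 48.3 and 57.3 in Vorinostat. Most Vorinostat libraries lay within the range of both vehicle groups, and the lowest of the 28 was Vorinostat 7. The log2 fold change of Aldh1l1 in Vorinostat against transgenic vehicle was -0.12 (SE 0.0701, unadjusted p = 0.104, edgeR adjusted p = 0.386), and -0.10 without the 4 libraries of high mitochondrial share. Exons of Aldh1l1 overlap those of Gm45901 and Gm15756 over 604 bases, but these genes held 18 and 49 counts over all libraries.

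The regulators are Fgfr3 and Sox9. Fgfr3 (chr5:33721674-33737068, plus strand) encodes a receptor of fibroblast growth factors that marks astrocytes and their precursors. It ranged over 144 to 176 CPM in wildtype vehicle (median 162), 142 to 176 in transgenic vehicle (median 163) and 114 to 166 in Vorinostat (median 157). The wildtype and transgenic vehicle ranges nearly coincide, and the low end of the Vorinostat range is library 7, the lowest of the 28. Fgfr3 had the smallest unadjusted p of the 10, with a log2 fold change of -0.12 (SE 0.0597, 95% interval -0.25 to -0.0030, unadjusted p = 0.0449, edgeR adjusted p = 0.345) in Vorinostat against transgenic vehicle. An unadjusted p under 0.05 was held by 14.4% of all genes in that comparison. It was -0.05 (unadjusted p = 0.289) in the 24 libraries of lower mitochondrial share. In transgenic vehicle against wildtype vehicle Fgfr3 had 0.02 (SE 0.0581, edgeR adjusted p = 0.9998), and in Vorinostat against wildtype vehicle -0.10 (SE 0.0582, edgeR adjusted p = 0.421). Exons of Fgfr3 overlap a gene model on the other strand, G630022F23Rik, over 998 bases, and with unstranded libraries reads in that stretch cannot be told apart. That gene model held 1103 counts over all libraries, where Fgfr3 held 2415 (Vorinostat 7) to 5950 (wildtype vehicle 5) in a single library.

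Sox9 (chr11:112782224-112787760, plus strand) encodes a transcription factor that sets up glial fate and stays on in mature astrocytes. Its lowest, median and highest libraries were at 14.8, 21.8 and 25.8 CPM in wildtype vehicle, 17.3, 21.5 and 26.3 in transgenic vehicle, and 14.7, 21.1 and 25.98 in Vorinostat. The medians and upper ends are nearly the same in the 3 groups. The log2 fold change was 0.05 (SE 0.101) in transgenic vehicle against wildtype vehicle and -0.09 (SE 0.104) in Vorinostat against transgenic vehicle, with edgeR adjusted p of 0.9998 and 0.626, and the latter was -0.01 in the 24 libraries of lower mitochondrial share.

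The 10 genes differed in how much they varied within groups. Slc1a2 was the steadiest, with a coefficient of variation of 6.44%, followed by Gja1 (7.78%), Fgfr3 (8.18%) and Slc1a3 (8.98%). Aldh1l1 and Aldoc were intermediate at 10.6% and 10.8%. S100b (14.7%), Aqp4 (15.3%), Gfap (15.9%) and Sox9 (16.0%) varied most. Set against the genes within a factor of 2 of their own mean level, Gfap lay at percentile 91.5 of variation, Aqp4 at 90.7, S100b at 89.4 and Sox9 at 87.9. Slc1a2 lay at percentile 5.56, but only 18 genes, itself included, have a level that near to it.

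The 10 genes did not all move the same way in the 4 libraries of high mitochondrial share. In wildtype vehicle 2 and in Vorinostat 6, 7 and 9, Slc1a3, Gja1 and S100b were above every other library of the same group. How many of all genes set these libraries apart was not counted, so this is not shown to be particular to the 10. In Vorinostat against transgenic vehicle, 14.4% of all genes had an edgeR unadjusted p under 0.05 with these 4 libraries and 3.84% without them. S100b was at 133 CPM in wildtype vehicle 2, where the other 9 reached at most 119.5, and at 128, 139 and 143 CPM in Vorinostat 6, 7 and 9. Fgfr3 went the other way: wildtype vehicle 2 was the lowest of its group at 144 CPM, and Vorinostat 7 the lowest of its own at 114. Aldh1l1 and Slc1a2 were below all 6 other Vorinostat libraries in numbers 6 and 7. Vorinostat 9 was the highest of all 28 libraries for 6 of the 10 genes, and Vorinostat 7 the lowest for 3, Aldh1l1, Fgfr3 and Sox9. The summed level of the microglia list, with 11 of its genes over 10 CPM, was 421 to 495 CPM in the 4 (median 445) and 337 to 442 in the other 24 (median 378), ranges that overlap at their ends. The oligodendrocyte list overlapped widely, at 4310 to 7519 against 3423 to 7747 CPM. The part of the mitochondrial and hemoglobin transcripts' source in these levels was not tested.

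**Figure D4:**
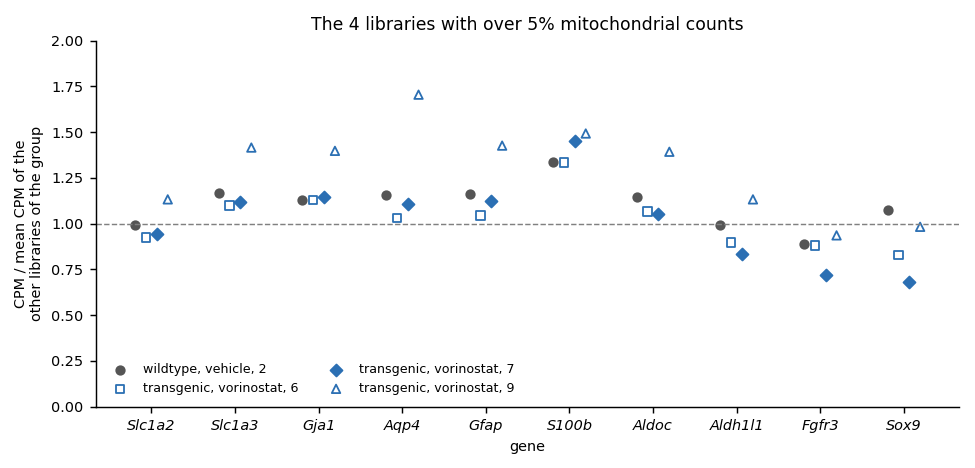
The vertical axis is the CPM of each of the 4 libraries of high mitochondrial share divided by the mean CPM of the other libraries of its group, and the horizontal axis gives the 10 genes. S100b, Gja1, Slc1a3, Gfap, Aqp4 and Aldoc lie above 1 in all 4 libraries, Fgfr3 lies below 1 in all 4, and Vorinostat 9 is the top point for most genes.

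Covariation was measured in the 24 libraries with at most 5% mitochondrial counts, on log2 CPM with group means removed. Of the 45 pairs of the 10 genes, 32 had a positive Pearson r (median 0.225, range -0.379 to 0.748), and 8 passed an adjusted permutation p under 0.05, all of them positive. The share of pairs of other genes that would pass was not counted, so these counts are not shown to be particular to astrocyte genes. Genes outside the 10 reached higher r with them, such as Rplp0 with Aldoc (0.912). One set of linked genes held both glutamate transporters and connexin 43. Slc1a2 and Gja1 had r = 0.648 (rho 0.706, adjusted permutation p = 0.0364 and 0.0202). Slc1a2 and Slc1a3 had r = 0.622 (rho 0.609, adjusted permutation p = 0.0364 and 0.0844), and Slc1a3 and Gja1 had r = 0.576 (rho 0.587, adjusted permutation p = 0.0475 and 0.0844). Aqp4 joined that set through Gja1 alone, with r = 0.556 (rho 0.543, adjusted permutation p = 0.0475 and 0.0899).

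A second set held Gfap, Aldoc, S100b and Aldh1l1. Aldoc and S100b had r = 0.748 (rho 0.484, adjusted permutation p = 0.00765 and 0.151), and Gfap and Aldoc had r = 0.705 (rho 0.492, adjusted permutation p = 0.00765 and 0.149). Gfap correlated with S100b at r = 0.567 (rho 0.470, adjusted permutation p = 0.0475 and 0.161) and with Aldh1l1 at r = 0.537 (rho 0.445, adjusted permutation p = 0.0475 and 0.170). No pair between the first set and the second passed the test in these 24 libraries, and neither Fgfr3 nor Sox9 had a partner that did. With all 28 libraries several pairs between the sets passed. Among them were Slc1a3 with Aldoc (r = 0.735, adjusted permutation p = 0.00127) and Gja1 with S100b (r = 0.689, adjusted permutation p = 0.00148). Fgfr3 then passed with Aldh1l1 (r = 0.525, adjusted permutation p = 0.024), so the separation depends on the libraries used. Whether pairs within the sets differ from pairs between them was not tested. When the 2 libraries farthest from the median of the first gene were left out of each pair, 0 of 45 pairs passed after adjustment. Slc1a2 with Gja1 then had r = 0.653 and Slc1a2 with Slc1a3 had r = 0.597 (both adjusted permutation p = 0.0954). Between the sets, Gfap with Aqp4 had r = 0.598 (adjusted permutation p = 0.0954). Gfap with Aldoc had r = 0.431, Aldoc with S100b 0.451 and Gfap with S100b 0.186 (adjusted permutation p = 0.231, 0.231 and 0.625), and the r of these 3 pairs was smaller without those libraries.

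**Figure D5:**
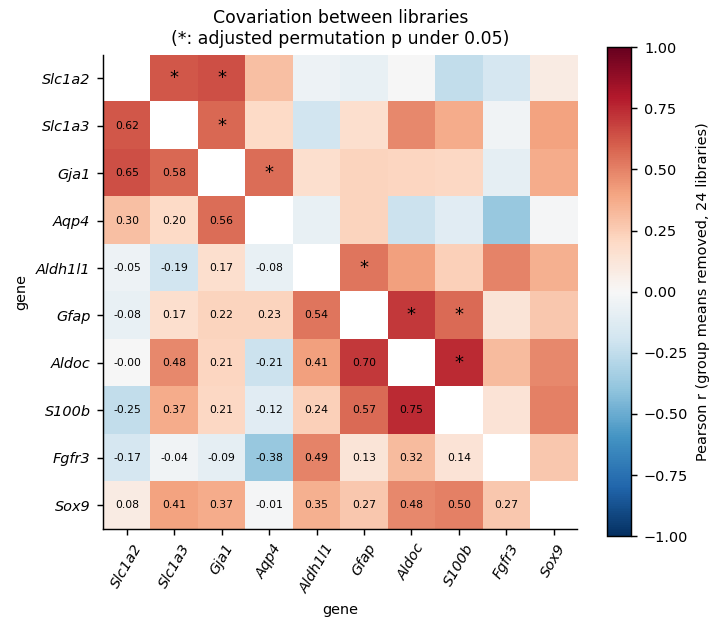
Colours are Pearson r between the 10 genes across 24 libraries with group means removed, printed below the diagonal, and stars above it mark the 8 pairs with an adjusted permutation p under 0.05. Stars lie among Slc1a2, Slc1a3, Gja1 and Aqp4 and among Aldh1l1, Gfap, Aldoc and S100b, with none between these blocks.

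The same test was run between the 10 genes and the mean level of 10 lists of markers of other cells, 100 relations in all, of which 7 passed an adjusted permutation p under 0.05. How often other genes would pass with these lists was not counted. The microglia list (genes of the resident macrophages of the brain) followed Aldoc (r = 0.816, rho 0.670, adjusted permutation p = 0.0020 and 0.027), Gfap (r = 0.738, rho 0.596, adjusted permutation p = 0.0060 and 0.040) and S100b (r = 0.734, rho 0.675, adjusted permutation p = 0.0060 and 0.027). The oligodendrocyte list followed Gfap (r = 0.698, rho 0.698, adjusted permutation p = 0.0060 and 0.027) and Aldh1l1 (r = 0.633, rho 0.568, adjusted permutation p = 0.040 and 0.0948). Gfap also followed the list of pericytes and smooth muscle (r = 0.647, rho 0.633, adjusted permutation p = 0.0268 and 0.0366), and S100b that of inhibitory neurons (r = 0.629, rho 0.692, adjusted permutation p = 0.040 and 0.027). Slc1a2, Slc1a3, Gja1, Aqp4, Fgfr3 and Sox9 had no list that passed. Without the 2 libraries farthest from the median, Gfap with oligodendrocyte genes had r = 0.687 (adjusted permutation p = 0.0165) and Aldoc with microglia genes r = 0.664 (adjusted permutation p = 0.050). The other 5 relations then had r between 0.475 and 0.550 and did not pass after adjustment (adjusted permutation p 0.275 to 0.288).

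The genes most like each of the 10 were sought by Pearson r over the same 24 libraries, among 14785 genes with a mean of at least 1 CPM, and are given as a description. For Gfap they were Cmtm5 (r = 0.939), S100a16 (0.918) and Gna12 (0.907), and for Aldh1l1 they were Lgmn (0.918), Cadm4 (0.890) and Ckb (0.882). Slc1a2 was followed by Prex2 (0.907), Rbl2 (0.855) and Aldh6a1 (0.855), and Slc1a3 by Cybrd1 (0.881), Zfp106 (0.797) and Ctr9 (0.787). The nearest to Gja1 was the zinc transporter gene Slc39a12 (0.764), to Aqp4 the cystine transporter gene Slc7a11 (0.778) and to Sox9 its relative Sox2 (0.765), all 3 of them in the astrocyte lists used here. Next came Nedd1 (0.760) and S1pr1 (0.759) for Gja1, Ednrb (0.735) and Maml3 (0.715) for Aqp4, and Zfp36l1 (0.727) and Cox5b (0.710) for Sox9. These, and the genes named for the other members, are in none of the lists. Aldoc was nearest to the ribosomal gene Rplp0 (0.912), S100b to Dact3 (0.921) and Fgfr3 to Rgsl1 (0.744). With all 28 libraries the r of Fgfr3 with Rgsl1 was 0.183 and that of S100b with Dact3 was 0.119, while that of Gfap with Cmtm5 was 0.878. S100b with Pebp1 and with Rpl37a had r = 0.909 and 0.902 in the 24 libraries and 0.836 and 0.928 in all 28.

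Other astrocyte genes gave the setting for the 10. A list of 40 further astrocyte genes, among them Glul, Kcnj10, Apoe and Gjb6, was tested in full and had 0 calls in every comparison. Of these, 31 had a positive log2 fold change in transgenic vehicle against wildtype vehicle (median 0.04, against 0.00013 for all genes). In Vorinostat against transgenic vehicle 15 were positive (median -0.04, against 0.0033 for all genes). Without the 4 libraries of high mitochondrial share those counts were 35 and 7 of 40. The values furthest from 0 in Vorinostat against transgenic vehicle belonged to Etnppl at 0.31 (SE 0.191) and to Atp1b2, a sodium pump subunit, at -0.26 (SE 0.0827), with edgeR adjusted p of 0.393 and 0.345, and were 0.10 and -0.12 in the 24 libraries of lower mitochondrial share (edgeR adjusted p = 0.976 and 0.966). Slc15a2, a peptide transporter gene, stood at 33.8 ± 4.31 CPM in wildtype vehicle, 39.1 ± 2.73 in transgenic vehicle and 42.4 ± 7.13 in Vorinostat (SD). Its log2 fold change in Vorinostat against wildtype vehicle was 0.33 (SE 0.0807, unadjusted p = 0.000315, edgeR adjusted p = 0.385), and 0.20 (edgeR adjusted p = 0.929) in those 24 libraries.

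Signs in the smaller lists are set beside 50.1% of all genes positive in transgenic vehicle against wildtype vehicle and 50.9% in Vorinostat against transgenic vehicle, or 52.6% and 48.3% in the 24 libraries of lower mitochondrial share. Genes of endfeet and potassium handling, 16 in the list, had 9 positive values in the former and 4 in the latter, with 0 calls, and 9 and 7 in the 24 libraries. Dtna, which encodes dystrobrevin of the endfoot complex, had a log2 fold change of 0.10 (SE 0.0435, edgeR adjusted p = 0.9998) in the former, and Dmd, which encodes dystrophin, one of 0.20 (SE 0.0817, edgeR adjusted p = 0.345) in the latter, which was 0.13 in the 24 libraries. Of 14 genes of glutamate and GABA handling, 12 were positive in the former and 3 in the latter, against 9 and 7 in the 24 libraries, and 0 were called. Slc38a3, a glutamine transporter gene, had -0.15 (SE 0.0695, edgeR adjusted p = 0.345) in Vorinostat against transgenic vehicle and -0.09 in the 24 libraries. Of 16 genes of glycogen, lactate and fuel use, 8 and 5 were positive, 7 and 4 in the 24 libraries, and 0 were called.

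Genes of the reactive state were low. Of 38 listed, 33 could be tested, and between 7 and 8 of them averaged over 10 CPM in any group. In transgenic vehicle against wildtype vehicle 18 of 33 were positive, in Vorinostat against transgenic vehicle 12 and in Vorinostat against wildtype vehicle 16, and 0 were called. In the 24 libraries of lower mitochondrial share these counts were 18, 12 and 10, beside 52.6%, 48.3% and 49.5% of all genes. Their summed level was 328 to 420 CPM in wildtype vehicle, 345 to 411 in transgenic vehicle and 330 to 391 in Vorinostat libraries, so the groups overlapped. C3, a complement gene used as a marker of one reactive state, averaged 0.615, 0.828 and 0.389 CPM in the 3 groups. Its log2 fold change in Vorinostat against transgenic vehicle was -1.10 (SE 0.447, edgeR adjusted p = 0.345), and -0.996 in the 24 libraries. Cd44, a surface receptor gene, averaged 4.16 ± 3.23 CPM in wildtype vehicle and 2.56 ± 0.592 in transgenic vehicle (SD), a log2 fold change of -0.69 (SE 0.312, edgeR adjusted p = 0.9998). Cp, which encodes ceruloplasmin, had 0.34 (SE 0.0917, unadjusted p = 0.000927, edgeR adjusted p = 0.385) in Vorinostat against wildtype vehicle, and 0.18 (edgeR adjusted p = 0.929) in the 24 libraries.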

How the data were processed

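The deposited files hold raw counts of reads per gene for each of the 28 libraries. The tools listed are STAR 2.5.2b for alignment to mm10, featureCounts (Subread 1.5.1) and, for read quality, FastQC 0.11.5, per the submitters' processing notes. Annotation and strand setting are not given in the sources used here. Strand is not marked by the library kit named in the labels' protocols, and reads were 50 bases long from 1 end. A second deposited table gives expression adjusted by a mixed linear model, per its own name, read here as log2 values although the log base is not stated. The last deposited table gives the authors' coexpression module membership scores with their p-values.

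Gene symbols came from GENCODE vM21 (GRCm38), which matched 99.3% of identifiers. Counts of all 28 libraries entered one edgeR 4.0.16 quasi-likelihood fit (R 4.3.3) with 3 group means, TMM scaling and a minimum count of 10 per gene by filterByExpr, and p-values were adjusted over all 17009 genes with a threshold of 0.05. Standard errors are the log2 fold change divided by the root of the F statistic. Correlations used log2 CPM with a prior count of 2 and 100000 permutations within groups. Both steps were tested on simulated data. Alternatives were DESeq2 1.42.0, limma 3.58.1 (voom), other scalings and filters, replicate blocks, exact permutation tests and leaving out libraries. All 10 genes are named, and from each other astrocyte list only genes with the 2 largest positive or negative changes in a comparison. The genes and lists were chosen with earlier results of these data known. No 2 libraries of a group held the same counts (117 pairs, chi-square per degree of freedom 3.37 to 87.4). The smallest library held 20230085 counts.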

Additional observations from a re-analysis of the deposited data

Results flagged for a closer look

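In 5 of 30 combinations of gene and group, 1 library stood apart from the rest of its group by Dixon's criterion at the 95% level, which chance alone meets in about 1 in 20 groups. The library Vorinostat 9 accounted for 4 of them. It held 188.7 CPM of Aqp4, where the next Vorinostat library held 124.5, and 346.5 CPM of Gja1, where the next held 284.6. Slc1a3 was at 1018 CPM there, against 802.9 in the next library, and Aldoc at 1054 CPM against 811.1. In the same library mitochondrially encoded genes took 6.94% of counts, and its part in these values was not tested. The last of the 5 was transgenic vehicle 8, with 825.2 CPM of Slc1a3, where the next transgenic vehicle library held 761.3 and the mitochondrial share was 3.88%.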

How the results depend on the processing

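No setting tried called any of the 10 genes in any comparison. Over the settings other than single libraries left out, 111 of 120 values kept their sign in transgenic vehicle against wildtype vehicle, 111 of 120 in Vorinostat against transgenic vehicle and 113 of 120 in Vorinostat against wildtype vehicle. The smallest adjusted p among them were 0.9995, 0.183 and 0.375. Genes with an unadjusted p under 0.05 numbered 227, 2450 and 2142 by edgeR in the 3 comparisons in that order, 337, 2064 and 1520 by exact permutation tests, which called 0 genes in each, and 412, 664 and 721 by edgeR without the 4 libraries over 5% mitochondrial counts. Without the 4 libraries over 5% mitochondrial counts, signs turned in Vorinostat against transgenic vehicle for Aqp4 (-0.103), Slc1a3 (-0.0571), Gja1 (-0.0867), Aldoc (-0.0791) and S100b (-0.0394). In Vorinostat against wildtype vehicle they then turned for Aqp4 (-0.00745), Slc1a3 (-0.0154), Sox9 (0.0449), Aldoc (-0.0532) and S100b (-0.0546). Requiring 1 CPM in 9 libraries gave -1.65e-05 for Aldoc in transgenic vehicle against wildtype vehicle and 0.00182 for Slc1a2 in Vorinostat against transgenic vehicle. Adding Xist, as high or low, as a covariate gave -0.0119 for Slc1a3 and -0.0222 for Aldoc in the former and 0.00111 for Slc1a2 in the latter. In the authors' deposited adjusted table the differences of group means were -0.0445 for Slc1a3, -0.0211 for Fgfr3 and -0.0461 for Aldoc in the former, 0.0384 for Slc1a2 in the latter and -0.00274 for Aldoc in Vorinostat against wildtype vehicle. The causes were not tested.

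The labels give libraries numbers that recur across groups. Same-numbered libraries did not all deviate together (27 pairs, r -0.339 to 0.408, median 0.0598, 7 over 0.1). Among 234 pairs of different number, 68 were over 0.1 and the median r was -0.0137. Of 28 libraries, 3 correlated best with their own number, and how many would do so by chance was not worked out. A replicate block by title number turned Gfap to -0.0193 and Aldoc to -0.0126 in transgenic vehicle against wildtype vehicle and Aldoc to -0.00868 in Vorinostat against wildtype vehicle, where it called 1 gene, Zfp26. A replicate block by sample code number (26 pairs, median r 0.0459, against -0.0102 in 235 other pairs) turned Aldoc to -0.00358 in transgenic vehicle against wildtype vehicle. It turned Slc1a2 to 0.0191 in Vorinostat against transgenic vehicle. DESeq2 called 1 gene in Vorinostat against transgenic vehicle, Igfbp4.

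With single libraries left out, log2 fold changes in transgenic vehicle against wildtype vehicle ran from -0.036 to 0.0780 for Gfap, -0.00289 to 0.0402 for Slc1a3 and -0.0420 to 0.0300 for Aldoc. In Vorinostat against transgenic vehicle they ran from -0.0755 to 0.0738 for Aqp4, -0.0293 to 0.00846 for Slc1a2, -0.0158 to 0.0678 for Slc1a3, -0.0349 to 0.0373 for Gja1 and -0.0545 to 0.0470 for Aldoc. Leaving out Vorinostat 9 gave the lowest value for all of these 5. In Vorinostat against wildtype vehicle they ran from -0.00348 to 0.146 for Aqp4 and -0.0507 to 0.0340 for Aldoc, again lowest without Vorinostat 9. Counts of genes called ran from 0 to 1 in Vorinostat against transgenic vehicle (Igfbp4, without Vorinostat 3) and from 0 to 3 in Vorinostat against wildtype vehicle (Alas2, Hbb-bt and Hbb-bs without wildtype vehicle 2, and Adm alone without wildtype vehicle 5). These 5 genes and Zfp26 were singled out after their values were seen.

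Correlated pairs of the 10 genes numbered 16 with all 28 libraries and 0 without the 2 farthest libraries, against 8 as reported. Correlations with lists of other cells numbered 3 without the 2 farthest libraries, against 7: 2 were among the 7, and the other was Gfap with endothelial genes (r = 0.658, adjusted permutation p = 0.0165). The counts of positive signs in lists, and values of genes named in them, without the 4 libraries were an alternative chosen after seeing the data.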

Other observations

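In the authors' deposited table of coexpression modules the 10 genes fall into 7 modules. Slc1a2 and Slc1a3 share the module named purple, Aqp4 and Gja1 share lightcyan, and Fgfr3 and Sox9 share green, while Gfap (lightgreen), Aldh1l1 (blue), Aldoc (yellow) and S100b (black) stand singly. In the authors' deposited table the membership score, read as the correlation of a gene with its module, was 0.837 for S100b, 0.790 for Gja1 and 0.782 for Gfap, and lowest for Slc1a2 at 0.475. The smallest of these modules, lightgreen, holds 501 of the 18014 genes in the authors' deposited table, and the largest, green, holds 2971. Of the 40 further astrocyte genes 7 lie in the black module, which holds 1924 of all genes in the authors' deposited table.

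Transcription factors of astrocytes and genes of radial glia, from which astrocytes arise, were also low to moderate in level and had 0 calls by edgeR. Of 20 listed transcription factor genes, 14 had a positive log2 fold change in transgenic vehicle against wildtype vehicle and 5 in Vorinostat against transgenic vehicle, beside 50.1% and 50.9% of all genes. These counts were again 14 and 5 without the 4 libraries of high mitochondrial share. Stat3 averaged 47.3 ± 3.29 CPM in wildtype vehicle and 51.5 ± 3.01 in transgenic vehicle (SD), a log2 fold change of 0.12 (SE 0.0633, edgeR adjusted p = 0.9998). Hes5, a Notch target gene, averaged 4.39 ± 1.62 CPM in transgenic vehicle and 3.40 ± 0.455 in Vorinostat, a log2 fold change of -0.37 (SE 0.165, edgeR adjusted p = 0.345), and of -0.29 without those 4 libraries. Of 12 radial glia genes, 10 were positive in the former comparison and 4 in the latter, against 9 and 2 without those 4 libraries. Thbs4, which encodes a secreted thrombospondin, averaged 15.4 ± 3.14, 19.3 ± 5.43 and 16.5 ± 3.97 CPM in wildtype vehicle, transgenic vehicle and Vorinostat libraries.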
